A study of Mus musculus with 2 samples.

Results

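In the liver of mice whose UHRF1 protein can no longer bind methylated H3K9, 4476 of 23468 highly methylated 1 kb windows of the autosomes had nearly the same DNA methylation in both libraries. These windows were chosen from the measured values. A window entered when it held at least 5 CpG cytosines outside CCGG sites with at least 20 reads in each library, when its level averaged over both libraries was at least 85%, and when its mean level in KI differed from WT by less than 1 percentage point. They are called near-equal windows here. In all, 64516 autosomal windows had enough cytosines to be measured, and those at 85% or above are called methylated windows. Because the small change defines the near-equal windows, their own change is a description, and values that took no part in the choice were measured too. Shallower cytosines of the same windows changed by -1.52 points on average. Windows chosen anew on 1 strand changed by -1.58 points on the other strand, and neighbouring methylated windows within 2 kb by -1.50. The name of windows that keep their level thus did not hold beyond the values that chose them.

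DNA methylation at CpGs is copied after each round of replication. UHRF1 binds the half-methylated CpGs of new DNA through its SRA domain and brings in DNMT1, the maintenance methyltransferase, and its tandem Tudor domain binds histone H3 di- or trimethylated at K9. Most CpGs of a mammalian genome outside active promoters and enhancers are highly methylated, in gene bodies as well as in repeats, and H3K9 methylation is known for marking repeat-rich heterochromatin.

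Both groups were liver DNA of male mice, 3 months old, of strain C57BL/6 as the labels give it. The WT library pooled DNA of 3 mice with the wild type allele. The KI library pooled DNA of 3 mice homozygous for a Uhrf1 allele in which a tyrosine and a proline of the tandem Tudor domain are alanines, made in ES cells and carried in every cell of the animal. The KI sample's genotype field reads knock out while its title reads KI, and it was taken as KI. In reduced representation bisulfite sequencing (RRBS), MspI cuts DNA at CCGG and a cytosine that stays unconverted by bisulfite is read as methylated. Each library is 1 pool, so the spread between animals is unknown, and every interval covers counting error only. Such intervals are too narrow, since PCR copies are not independent molecules and 1 read spans several CpGs. The WT library listed 7231934 CpG cytosines and the KI library 6452685, with a median of 37 reads in each at cytosines with 5 or more reads in both. At least 20 reads in both libraries covered 1069838 autosomal cytosines outside CCGG.

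To show what a near-equal window looks like, 3 stretches of 300 bases are printed below, from the windows with the smallest counting errors among those with nearly unique sequence. A stretch from a window that lost much methylation is set beside them. That window changed by -9.47 points, where the median of windows lower in KI by 1 point or more was -4.02. The stretch lies in Mcart1, a mitochondrial carrier family gene, and was chosen after its values were seen. All are the top strand of mm9, 5′ to 3′, and capitals mark the CpGs that were counted. The Zfp787 stretch lies at chr7:6084012-6084311 in a coding exon of a zinc finger gene. The Arid1b stretch lies at chr17:5342100-5342399, within Arid1b, a gene for a subunit of the SWI/SNF chromatin remodeller. Its window is within 1 kb of the start of an annotated transcript and 98076 bases from the nearest 5′ end of a protein-coding gene. The Shroom3 stretch lies at chr5:93371291-93371590, in a window with coding exon of a gene for an actin-binding protein. The Mcart1 stretch lies at chr4:45412479-45412778 in a coding exon.
Zfp787: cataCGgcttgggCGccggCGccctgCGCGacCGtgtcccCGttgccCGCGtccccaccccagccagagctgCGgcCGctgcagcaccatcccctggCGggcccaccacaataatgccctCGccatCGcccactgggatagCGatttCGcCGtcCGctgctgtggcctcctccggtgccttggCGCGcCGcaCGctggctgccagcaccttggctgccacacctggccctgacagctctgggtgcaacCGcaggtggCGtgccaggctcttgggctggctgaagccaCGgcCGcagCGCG
Arid1b: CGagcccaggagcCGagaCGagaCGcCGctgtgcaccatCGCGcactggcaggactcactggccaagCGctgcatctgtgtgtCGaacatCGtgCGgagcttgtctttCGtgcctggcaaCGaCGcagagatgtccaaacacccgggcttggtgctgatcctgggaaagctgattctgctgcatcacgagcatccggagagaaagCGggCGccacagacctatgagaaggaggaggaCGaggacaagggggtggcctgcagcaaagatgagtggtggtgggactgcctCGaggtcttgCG
Shroom3: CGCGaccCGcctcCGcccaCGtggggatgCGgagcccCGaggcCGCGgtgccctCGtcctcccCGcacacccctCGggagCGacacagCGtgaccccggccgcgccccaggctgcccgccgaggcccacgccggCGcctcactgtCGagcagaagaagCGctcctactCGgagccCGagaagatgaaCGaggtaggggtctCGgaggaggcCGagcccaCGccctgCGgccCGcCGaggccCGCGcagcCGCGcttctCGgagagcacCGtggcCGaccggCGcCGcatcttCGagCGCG
Mcart1: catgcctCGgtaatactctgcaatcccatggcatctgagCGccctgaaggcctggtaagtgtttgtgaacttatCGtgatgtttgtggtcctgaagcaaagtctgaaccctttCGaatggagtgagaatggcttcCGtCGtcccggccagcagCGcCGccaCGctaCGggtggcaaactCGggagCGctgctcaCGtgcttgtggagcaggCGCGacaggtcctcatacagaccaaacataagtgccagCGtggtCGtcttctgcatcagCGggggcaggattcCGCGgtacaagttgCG

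The Zfp787 stretch held 28 counted CpG sites, read on 54 cytosines, and its mean level was 92.1% in WT and 91.5% in KI. The Arid1b stretch, with 19 sites and 33 cytosines, had 95.9% in WT and 94.7% in KI. Its change of -1.13 points was beyond the 1-point limit, which its whole window met. The densest was Shroom3, where 38 sites and 76 cytosines averaged 91.8% in WT and 91.2% in KI. In these 3 stretches the ranges of single cytosines overlapped between the genotypes, for example 78.1% to 98.3% in WT and 70.6% to 100% in KI for Zfp787. The Mcart1 stretch, with 21 sites and 42 cytosines, started from a like level of 91.9% in WT and stood at 82.4% in KI. Single cytosines there ranged from 75.7% to 98.3% in WT and from 52.0% to 96.0% in KI, so the ranges overlapped there too.

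**Figure D1:**
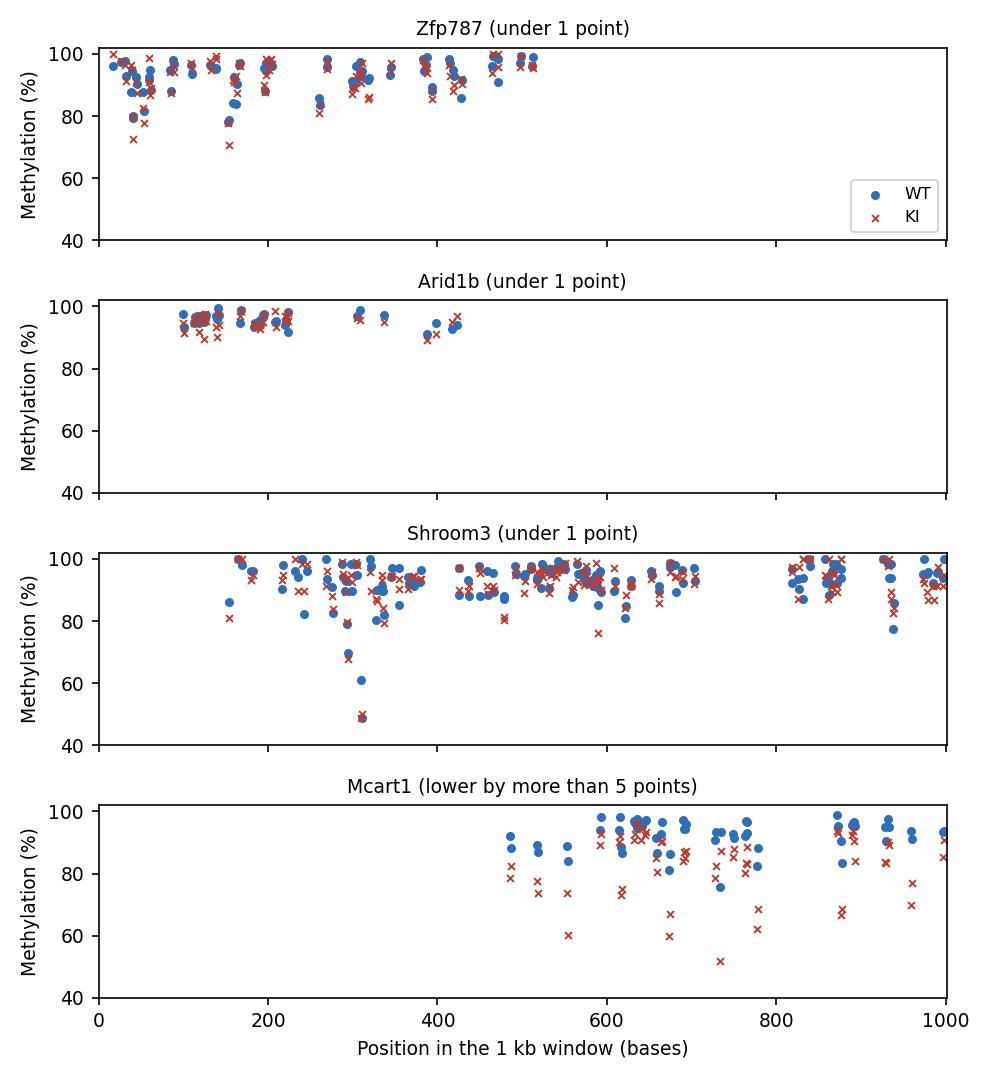
Methylation of each counted CpG cytosine (y axis, %) by its position in the 1 kb window (x axis, bases) for the Zfp787, Arid1b and Shroom3 windows and the Mcart1 window. WT points (circles) and KI points (crosses) overlie each other in the upper 3 panels, whose window means changed by -0.752, -0.908 and -0.599 points, while most KI points of Mcart1 lie below the WT points. Every axis of level starts at 40%.

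Among methylated windows, 19.1% were near-equal, 71.3% (16739) were lower in KI by 1 point or more and 9.6% (2253) were higher by as much. The median change of all methylated windows was -2.71 points. The near-equal windows lay on the upper flank of this distribution, with no gap or separate peak at 0. Their median level was 92.7% in WT and 92.5% in KI. Of the 4476 windows, KI was below WT in 2677, above it in 1793 and equal in 6. They held 48619 cytosines, with a median of 8 per window (range 5 to 151) and a median depth of 96.3 reads per cytosine. At the limit on the lower side, the 5 best measured windows inside changed by -0.995 to -0.988 and the 5 outside by -1.02 to -1.001. On the higher side the 5 inside changed by 0.961 to 0.991 and the 5 outside by 1.002 to 1.02.

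**Figure D2:**
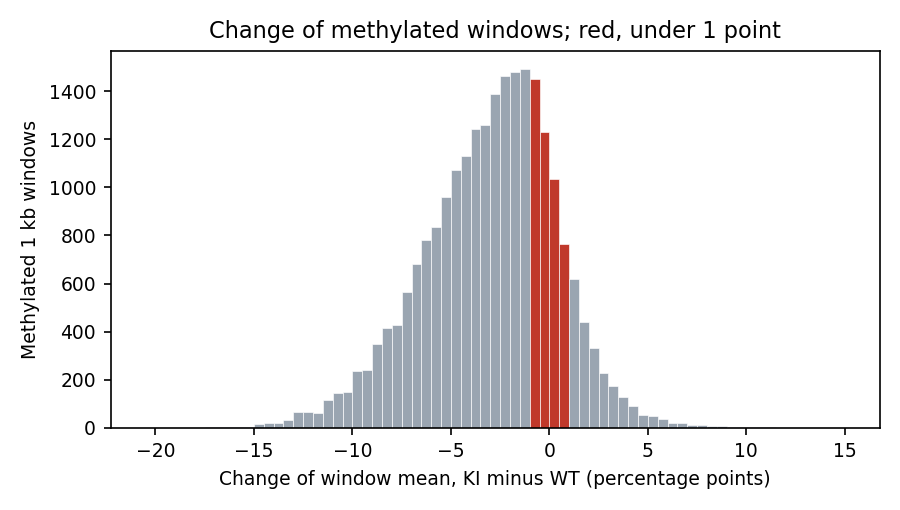
Number of methylated 1 kb windows (y axis) by change of the window mean, KI minus WT, in percentage points (x axis, bins of 0.5 points). Red bins hold the 4476 near-equal windows, and grey bins the 16739 lower and 2253 higher windows. The red bins cut across the flank of a single peak.

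The limit of 1 point is finer than most windows were measured. The counting error (1 standard error) of a near-equal window's change had a median of 1.36 points, ranged from 0.292 to 4.38, and was 1 point or more in 3377 of the 4476 windows. In 2014 of them (45%), the 95% interval of the change lay wholly above the -2.71 points of the median methylated window. The remaining windows could not be told at this depth from a window with the median loss.

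Other measures used values outside the choice. For the other strand, windows were chosen by the same criteria from the cytosines of 1 strand and measured on the opposite strand, whose bisulfite reads are separate. In 3401 such choices the mean level on the other strand was 92.4% in WT against 90.8% in KI, which is a change of -1.58 points (95% interval -1.64 to -1.52). All methylated windows chosen in this way (19682) changed by -3.43 points on the other strand, those lower by -4.15 and those higher by -1.29. On the other strand 28.2% of near-equal choices were again under 1 point, against 17% of all methylated choices, and 73.5% were lower in KI. The strands gave like values, with -1.61 points for choices made on the top strand and -1.56 for the bottom.

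At the 8012 shallower cytosines of near-equal windows, with 5 or more reads in both libraries but under 20 in at least 1, the mean went from 89.3% in WT to 87.8% in KI. This change of -1.52 points (-1.79 to -1.25) compares with -4.07 (-4.21 to -3.93) in the lower windows and -1.09 (-1.43 to -0.752) in the higher windows. Windows that had risen by 1 point or more on the chosen values thus fell at their shallower cytosines, as near-equal windows did. A read spans several CpGs, so shallower cytosines may share reads with counted cytosines of the same window. The near-equal and higher classes lay closer to each other than to the lower class on both measures, and the intervals of the near-equal and lower classes did not overlap.

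**Figure D3:**
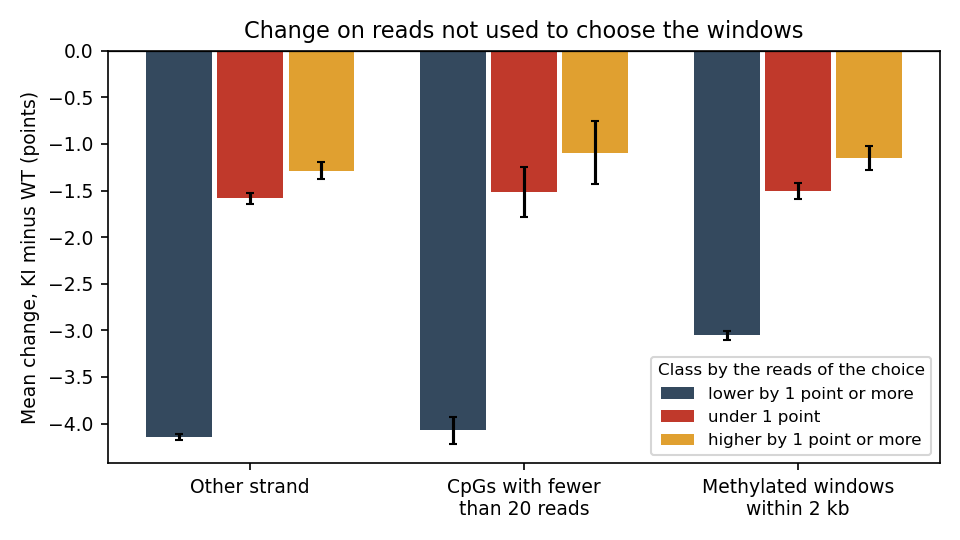
Mean change, KI minus WT, in percentage points (y axis) on 3 sets of values outside the choice (x axis). Methylated windows are classed as lower, near-equal (under 1 point) or higher by the values of the choice. Bars show means and error bars the 95% interval of counting error. The near-equal bars stand at -1.58, -1.52 and -1.50 points, between the lower and the higher class each time.

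A further measure was the methylated windows next to a near-equal window. Windows 1 kb apart can share fragments at their boundary, a pair of near-equal neighbours counts in both directions, and neighbours may be near-equal themselves. Within 2 kb there were 1343 such neighbours, at 92.4% in WT against 90.9% in KI, and they changed by -1.50 points (-1.59 to -1.42). Around lower windows the neighbours changed by -3.05 points (-3.10 to -3.00). Of the neighbours of near-equal windows, 32% were near-equal too, against 22.1% of the neighbours of any methylated window. The difference from lower windows narrowed with distance. At 1 kb the neighbours changed by -1.55 points beside near-equal and -3.27 beside lower windows, at 3 to 5 kb by -1.53 and -2.36, and at 51 to 100 kb by -1.99 and -2.38.

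**Figure D4:**
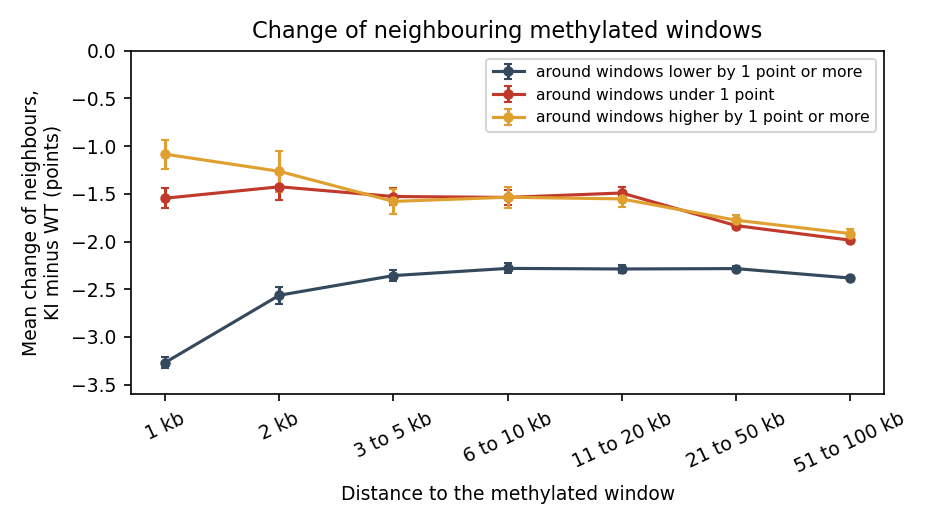
Mean change of neighbouring methylated windows, KI minus WT, in percentage points (y axis) by distance (x axis) from windows classed as lower, near-equal (under 1 point) or higher. Error bars are 95% intervals of counting error. Around near-equal windows the change stays between -1.43 and -1.55 points up to 20 kb and reaches -1.99 at 51 to 100 kb, above the line of lower windows at each distance.

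The level of a window went with how often it was near-equal. Of the windows at 85 to under 90%, 10.2% were near-equal, and the share was 19.6% at 90 to under 93%, 32.1% at 93 to under 95% and 43.6% at 95% or more. The level averages both libraries, so a loss in KI itself moves a window to a lower band, and the rise is partly built in. At 85 to under 90% the median WT level was 90.3% in lower and 88.0% in near-equal windows. The median counting error was 1.68 points at 85 to under 90% and 1.12 at 95% or more. On the other strand, near-equal choices at 85 to under 90% changed by -2.33 points against -4.86 for all methylated choices of that level. At 95% or more the values were -0.814 (-0.935 to -0.692) for near-equal choices and -1.04 (-1.16 to -0.919) for lower ones. Shallower cytosines at that level changed by -1.29 points (-1.88 to -0.712) in near-equal and by -0.924 (-1.49 to -0.363) in lower windows. Neighbours within 2 kb that were themselves at 95% or more changed by -0.479 points (-0.653 to -0.305) beside near-equal and by -0.762 (-0.909 to -0.614) beside lower windows. At this level the shallower cytosines thus gave the opposite order to the other measures. The intervals of near-equal and lower windows overlapped on every measure, though by little on the other strand and among neighbours. Overlap of intervals does not show that the classes are alike, and the difference between them was not tested.

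Near-equal windows lay in genes more often than methylated windows in general. Of the 4476, 40.3% lay in introns, 23.1% in coding exons, 11.2% within 1 kb of a start site of any annotated transcript, 3.80% in other exons and 21.6% between genes. Over all methylated windows the share between genes was 38.6% and in coding exons 16.4%. The higher windows were placed much as the near-equal ones, with 22.4% between genes, 20.8% in coding exons and 40.2% in introns, so the position was not particular to a small change. Taken by class, 26.9% of methylated windows in coding exons were near-equal, where methylated windows of like level gave 22.1%. Between genes 10.7% were near-equal, where like level gave 16.5%. A window's class is that of its middle counted cytosine. The median counting error was 1.28 points in coding exons and 1.54 between genes, and its part in the difference was not tested.

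Repeated sequence was rare among them. Copies are the number of times the 16-base words around a cytosine occur in mm9, taken as the median over a window, with under 5 copies read as nearly unique. Of near-equal windows 84.2% were nearly unique and 10.4% had 100 copies or more, against 68.3% and 22.2% of all methylated windows and 85% and 9.68% of the higher windows. Near-equal windows made up 23.5% of nearly unique windows, 11% of those with 5 to under 100 copies and 8.13% of those with 1000 or more, where like level gave 19.8%, 19.2% and 15.2%. The share differed by position and by copies separately. Of nearly unique windows it was 25.9% in genes (like level 20.7%) and 16% between genes (like level 17.1%). At 100 copies or more it was 15.4% in genes (like level 20.3%) and 6.18% between genes (like level 15.2%). Nearly unique windows between genes were thus near their like-level share. From the nearest 5′ end of a protein-coding gene, near-equal windows lay a median of 22530 bases away, against 31906 for all methylated windows and 22059 for the higher windows. The median GC content was 49.9% against 49.2% for all methylated windows, with a median of 20 CpGs per kb in both sets. The near-equal share nevertheless went with GC content, from 16% of windows under 45% GC to 23.6% at 55 to under 60% and 22.1% at 60% or more. At a level of 85 to under 90% the same GC classes had 6.95%, 14.5% and 11.5%.

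**Figure D5:**
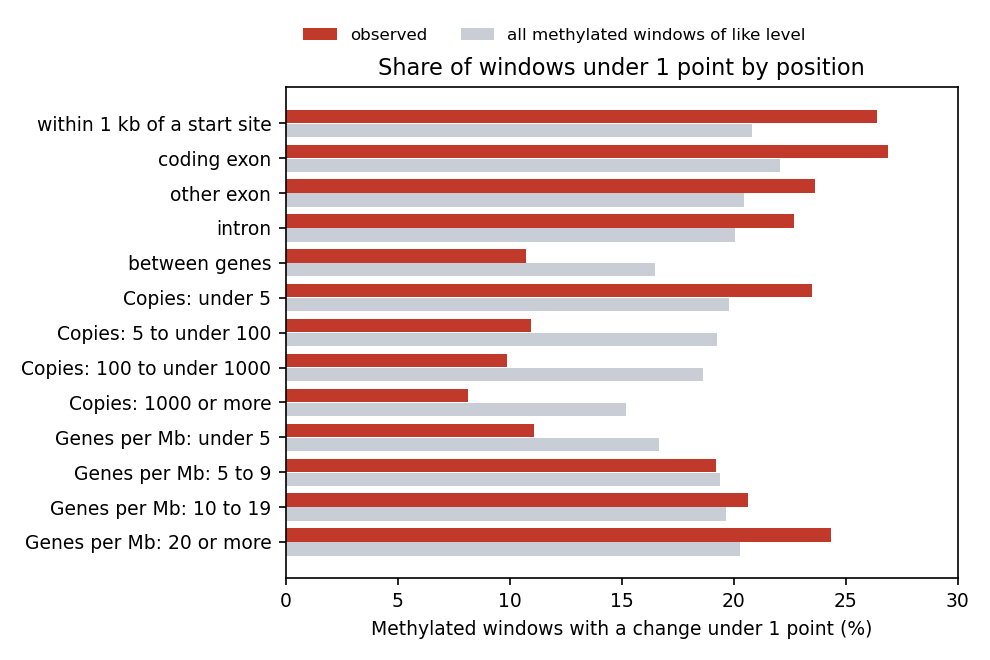
Percent of methylated windows whose change was under 1 point (x axis) by feature, by copies of their 16-base words and by protein-coding genes per Mb (y axis). Red bars are the observed shares and grey bars the share among all methylated windows of like level. Red exceeds grey in the gene classes, for example 26.9% against 22.1% in coding exons, and falls below it between genes (10.7% against 16.5%) and at 5 or more copies.

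The position of near-equal windows also went with their change on the unused strand. Near-equal choices in genes or at start sites changed by -1.34 points (-1.40 to -1.27) and those between genes by -2.71 (-2.86 to -2.55), while all methylated choices there changed by -2.31 and -5.22. Between genes, with 100 copies or more and a level of 85 to under 90%, 60 near-equal choices changed by -5.40 points (-5.92 to -4.87) on the other strand, and none of them was again under 1 point. All 2836 methylated choices of that kind changed by -6.57 (-6.64 to -6.50). In nearly unique windows in genes at the same level, 589 near-equal choices changed by -1.73 points (-1.89 to -1.56) against -2.92 for all.

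Gene density went the same way as position. Of methylated windows with under 5 protein-coding genes per Mb around them 11.1% were near-equal, and of those with 20 or more 24.4%, where like level gave 16.6% and 20.3%. Few methylated windows had a measured methylated window beside them, with 849 neighbours at 1 kb for the 4476 near-equal windows. Of these neighbours 30.2% were near-equal, against 20.8% beside any methylated window. Of the runs of adjoining near-equal windows, 4231 were single, 107 had 2 windows, 9 had 3 and 1 had 4. The longest ran over chr8:124073001-124077000, in 1110003O08Rik and Fbxo31, an F-box gene, and its 69 cytosines averaged 92.4% in WT and 92.3% in KI. The next by number of cytosines was chr7:4980001-4983000 in Zfp865, a zinc finger gene, with 154 cytosines at 94.0% and 93.9%. The window that follows it in Zfp865, with 84 cytosines, stood at 91.9% in WT and 93.8% in KI and was not near-equal. The third run lay in Plec at chr15:76009001-76012000, with 87 cytosines at 93.7% in both libraries.

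The 10 best measured of the nearly unique windows lay in genes for nuclear proteins and others. Besides Zfp787, Arid1b, Shroom3 and Zfp865 they were in Tnrc18, Rere (a transcriptional corepressor), Klf3 (a zinc finger transcription factor), Lphn2 (an adhesion receptor), Scaf1 and Por, the enzyme that passes electrons to cytochrome P450s. They rested on 26 to 151 cytosines and on 5733 to 20882 reads per library, and their levels lay between 91.8% and 96.6% in WT. The Zfp787 window had 92.9% in WT against 92.2% in KI, so that it changed by -0.752 points (-1.33 to -0.179). The Arid1b window had 95.7% in WT against 94.8% in KI and changed by -0.908 (-1.51 to -0.303). In these windows the interval excluded both 0 and the median loss of methylated windows. Scaf1 and Por were higher in KI, by 0.347 (-0.490 to 1.18) and 0.774 (-0.0702 to 1.62) points.

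Within those windows the strands differed most in Arid1b and Por, and no counting error is given for a strand alone. The Arid1b window changed by -0.157 points over 21 top-strand cytosines and by -2.03 over 14 of the bottom strand. The Por window changed by -0.348 on the top strand and by 1.90 on the bottom strand. In Lphn2 the strands were alike, at -0.781 and -0.703. Of 1805 near-equal windows with at least 5 cytosines on each strand, 481 (26.6%) were under 1 point on both strands and 1319 had strands on opposite sides of 0. A window under 1 point on both strands is near-equal by the rule. The 4.89% of all 9841 such methylated windows that were under 1 point on both strands are therefore the same 481. The rule also holds the mean over both strands near 0, so nothing is read from these counts about how the strands agree.

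Single CpGs in near-equal windows moved in both directions. Of their 48619 cytosines, 50.8% were lower in KI and 47.4% higher, while 67% of cytosines in all methylated windows were lower. Fisher's exact test of each cytosine's reads, two-sided, with Benjamini-Hochberg adjustment over 2654195 cytosines, called 7 of them lower and 16 higher, where a call needed more than 25 points between the libraries and an adjusted p under 0.05. Among cytosines of all methylated windows 0.727% were called lower and 0.0271% higher. The test compares 2 libraries, and the choice of windows used the same contrast, so nothing is read from these counts. The SD of the single changes was 5.31 points in near-equal windows, where counting alone gives 4.59. A cytosine lower by 10 points or more lay in 28.5% of near-equal windows, one higher by 10 points or more in 25.7%, and both in 15.6%. In 15.3% (683 windows) every cytosine stayed within 5 points, and over all methylated windows 4.45% did. The rule holds each window's mean change near 0. The directions, the SD and these shares of windows were thus partly set by the choice and are descriptions.

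The bases beside a CpG set the near-equal windows apart little. By the base before and after, the share of cytosines lying in near-equal windows went from 16.2% for ACGG to 21.8% for GCGT. CpGs between A or T on both sides made up 18% of the cytosines in near-equal windows and 16.7% of those in all methylated windows.

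Near-equal windows lay in 2609 of the 6987 genes with a methylated window, and 208 genes held 3 or more. Of 560 genes with at least 5 methylated windows, 43 had most of them near-equal and 103 had none. Over all methylated windows 19.1% were near-equal, and how many genes this share alone would give was not worked out. The ranking of genes uses the same values as the rule, so these counts are descriptions. Gm20388, an annotation of 4435 kb that spans other genes, held 66 of 228. After it came Taok3, a protein kinase gene, with 8 of 16 methylated windows, Dst, which codes for a protein linking the cytoskeleton, with 8 of 17, and Plec, which codes for plectin, with 7 of 12. Kif13a, a kinesin motor gene, had 7 of 13 and Gse1 7 of 14. Cux2, a homeobox gene, had 7 of 19, Cit, a kinase gene of cytokinesis, 7 of 25, and Slc39a11, a zinc transporter gene, 7 of 28. Fgfr2, a growth factor receptor gene, had 7 of 35, but its annotation covers 3009 kb and may take in other loci.

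The windows of 1 gene did not all behave alike. In Plec the 12 windows averaged 93.8% in WT and 94.8% in KI, with 1 lower and 4 higher beside the 7 near-equal. Its most changed window, of 14 cytosines, rose from 91.0% in WT to 96.5% in KI, while 3 windows just beyond it were near-equal, with changes of -0.456, 0.805 and -0.107 points. In Dst, near-equal windows ranged from -0.694 to 0.752 points, and the other windows reached -4.25. Kif13a had a near-equal window at 95.7% in WT and 95.5% in KI and, in the same gene, a window at 92.9% and 86.2% that lay in repeated sequence of 240 copies.

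Genes of the DNA methylation machinery had 14 near-equal windows among 38 (36.8%, where like level gave 27.3% and all methylated windows 19.1%). All 4 methylated windows of Dnmt1 were near-equal. They stood at 95.3%, 92.4%, 92.0% and 95.4% in WT and at 95.2%, 92.0%, 92.3% and 94.7% in KI, with counting errors of 1.05 to 1.37 points. Tet3, which codes for an enzyme that oxidises 5-methylcytosine, had 3 near-equal windows of 8, with 3 lower and 2 higher. Uhrf1 itself had 1 near-equal window of 4, at 93.9% in WT and 93.8% in KI, and its 3 other windows were lower by 2.37 to 3.31 points. The counting errors of those 3 were 1.08 to 3.21 points, and the median methylated window changed by -2.71. The window at -3.31 points lay in repeated sequence of 97 copies.

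Genes of the H3K9 methylation machinery had 8 of 15 near-equal (53.3%, like level 22.5%). Kdm4a, an H3K9 demethylase gene, held 4 of them among 5 windows, and the fifth lay just outside the limit at 93.4% in WT and 92.4% in KI. Ehmt2, the gene of the G9a methyltransferase, had 1 near-equal window, at 92.8% in WT and 93.3% in KI, and 1 higher window. Kdm4b, another demethylase gene, had none among 2, with changes of -4.24 and -3.64 points. Its windows start at base 56508001 of chromosome 17, close to those of Uhrf1, the altered gene, which end at base 56462000.

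Zinc finger genes, many of which code for KRAB repressors, had 80 near-equal windows of 240 (33.3%, like level 25.1%). Zfp64 had 3 of 7, Zfp827 2 of 7 and Zfp407 1 of 8. Developmental transcription factor genes had 21 of 82 (25.6%, like level 18.3%), among them 6 of 14 in Tcf7l2 and 3 of 15 in Sox5. Collagen genes had 14 of 72 (19.4%, like level 16.7% and all methylated windows 19.1%). Imprinted genes had 6 of 38 (15.8%, like level 21.1%), of which 4 lay in the 15 methylated windows of Trappc9.

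Liver metabolism genes had 8 of 29 near-equal (27.6%, like level 21.3%), with 1 of 5 in Acadm, a fatty acid oxidation gene, and 1 of 4 each in Fasn, the fatty acid synthase gene, and Scarb1, the HDL receptor gene. Hepatocyte transcription factors and receptors had 4 of 15 (26.7%, like level 14%), including 1 of 3 in Nr1h4, the bile acid receptor gene. Cytochrome P450 genes had 1 of 17 (5.88%, like level 14.3%). Plasma protein genes had 0 of 8, where like level gave 14.1%, and all 8 were lower, with a median change of -4.47 points. In Fetub, 2 windows averaged 91.2% in WT and 84.9% in KI.

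Receptor gene families of sensory cells had few methylated windows, with 0 near-equal of 10 in olfactory and 0 of 9 in vomeronasal receptor genes, where like level gave 19.6% and 13.3%. All were lower, at medians of -4.29 and -7.46 points. The 1 window in clustered protocadherins was lower as well. Among genes of other liver cells, endothelial genes had 4 of 20 (20%, like level 19.5%) and cholangiocyte genes 2 of 9 (22.2%, like level 17.1%). Stellate cell genes had 2 of 7 (28.6%, like level 17.4%), and blood and Kupffer cell genes 0 of 4, where like level gave 12.6%. Housekeeping genes had 1 of 4 (25%, like level 22.7%). Most of these lists hold few methylated windows, and windows of 1 gene share its position and sequence, so the counts are descriptions and a count of 0 in so few windows sets no family apart.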

How the data were processed

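Liver DNA of WT and KI mice was profiled by RRBS, 1 pooled library per genotype. The authors mapped reads to mm9 with Bismark (version 0.12.20 per the submitters' processing notes). How reads were trimmed and duplicates treated is not given in the sources used here. For each cytosine of a CpG the deposited files give coverage, a count of reads, and the methylated and unmethylated reads as a percent of that coverage. The deposited strand column reads F throughout, so strand was taken from the mm9 sequence.

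Windows were 1000 bases, each cytosine with equal weight. CpGs in CCGG were left out. Counting error came from the binomial variance of each cytosine's reads, and intervals are at 95%. The share at like level is that of all methylated windows, weighted by the levels (85, 90, 93 and 95% as limits) of the class described. These levels average WT and KI, so they are not independent of the change. Features came from the mm9 annotation of GENCODE. The scripts were tested on simulated data.

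The members, the gene lists and the rules for naming were chosen with earlier results of these data known. Named windows are the 10 near-equal windows with the smallest counting error and under 5 copies and the 3 longest runs. Named genes are the 10 with the most near-equal windows and, of each list, up to 3 with the most methylated windows. Alternatives changed coverage, number of CpGs, level, limit, strands, weights, CCGG sites and window start. No test between genotypes was possible, with 1 library each. Figures were drawn with matplotlib 3.10.9, and the analysis used Python 3.11.15 with scipy 1.17.1, pandas 2.3.3, numpy 2.4.6 and numba 0.67.0.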

Additional observations from a re-analysis of the deposited data

How the results depend on the processing

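The change on each set of unused values stayed negative under each alternative run for it. On the other strand it moved from -1.58 to -1.36 points with 10 CpGs, -1.14 with CCGG sites kept, -1.69 at a coverage of 10, -1.70 at a level of 80% and at a limit of 2 points, and -1.34 at a level of 90%. At shallower cytosines it moved from -1.52 to -1.90 at a coverage of 10 and -1.07 with reads summed over the window. In neighbours within 2 kb it moved from -1.50 to -1.07 with 10 CpGs, -1.10 with CCGG sites kept, -1.71 at a level of 80%, -1.04 at a level of 90%, -1.41 with reads summed and -1.08 with strands summed. The number of near-equal windows moved from 4476 to 2033 with 10 CpGs, 580 with CCGG sites kept, 2261 at a limit of 0.5 points, 8507 at 2 points and 2762 with strands summed. Their percent of methylated windows moved from 19.1 to 18.3 with 10 CpGs, 30.2 with CCGG sites kept, 18.5 and 19.6 at a coverage of 10 and 30, 15.9 and 26.8 at a level of 80% and 90%, 9.63 and 36.2 at a limit of 0.5 and 2 points, 19.7 with reads summed and 17.6 with strands summed.

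With strands summed, 28.2% of near-equal windows lay in coding exons, 36.8% in introns, 12.4% near start sites and 19.1% between genes, 82.9% were nearly unique, and medians were 50.9% GC and 22 CpGs per kb. A coverage of 10 gave 23.2% between genes, 49.6% GC and 19 CpGs per kb, a level of 90% gave 25.2% in coding exons, and a limit of 2 points gave 82.6% nearly unique. Causes were not tested. The 45 values not listed moved by less than their 95% counting interval, or for the number of windows by less than 1.5 times. Depth limits single windows, as 3377 of the near-equal windows have a counting error of 1 point or more. No paired analysis was possible because each genotype is 1 library and no result comes from a replicated test.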
